A study of Mus musculus with 12 samples.

Results

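AP-1 and the immediate early genes were followed through 10 genes, *Fos*, *Fosb*, *Fosl1*, *Fosl2*, *Jun*, *Junb*, *Jund*, *Egr1*, *Atf3* and *Ier3*. They were read through every probe set that the platform annotation pairs with 1 of these symbols alone, which gave 14 of the 45101 probe sets on the array, for 10 of 18193 genes. *Fosl1*, *Fosl2*, *Jun* and *Jund* have 2 probe sets each and the other 6 genes have 1. Of such a pair, the one with the larger SD over the 12 arrays is called the main probe set and the other the second. RNA came from C4-HD, a mammary carcinoma carried in BALB/c mice, after formalin fixation and embedding in paraffin. All mice had first received MPA (medroxyprogesterone acetate, a progestin). The MPA group (2 arrays) kept it. In 4 groups of 2 arrays the MPA pellet was taken out once tumours measured 50 mm2 and MFP (mifepristone, an antagonist of the progesterone and glucocorticoid receptors) was given under the skin at 10 mg/kg/day, for 6 h, 12 h, 24 h or 48 h per the sample labels. The no MPA group (2 arrays) is labelled by its source name as without MPA and by its treatment as 48 h of saline. The protocol text, by contrast, places saline with continued MPA, and the series text names no 6 h group. MFP against MPA therefore changes 2 things at once, the progestin and the antagonist. No label ties an array to its own animal, so every p-value below measures the spread between these arrays.

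AP-1 is a transcription factor made of a Jun protein paired with a Fos or ATF protein through leucine zippers. Growth factors, stress and wounding switch on *Fos*, *Jun*, *Egr1* and their relatives within minutes and without new protein synthesis, hence the name immediate early genes. In the mammary gland and in its tumours AP-1 takes part in cell cycle entry, in invasion and in the response to steroid hormones, whose receptors bind to or compete with AP-1.

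3 promoters are shown, those of *Jun*, *Fos* and *Atf3*. *Jun* changed along the time course. *Fos* and *Atf3* had the highest positive correlation among members over the 12 arrays (Pearson r = 0.82, a description over arrays that share groups). Both were highest in the same array, no MPA replicate 1 (2.41 and 2.13). *Egr1* and the main *Fosl2* probe set had r = -0.86. RefSeq promoter windows (GRCm38.p6) were found for 8 of the 10 genes, all but *Fosl1* and *Egr1*. The 250 bases before the start site are printed 5′ to 3′, from chr4:95052223-95052472, minus strand, chr12:85473640-85473889, plus strand, and chr1:191183334-191183583, minus strand. Capitals mark TGACATCA, a variant AP-1 site, in *Jun*, and TGACG, the core of the cAMP response element, in *Fos* and *Atf3* (in *Atf3* on the opposite strand).
Jun: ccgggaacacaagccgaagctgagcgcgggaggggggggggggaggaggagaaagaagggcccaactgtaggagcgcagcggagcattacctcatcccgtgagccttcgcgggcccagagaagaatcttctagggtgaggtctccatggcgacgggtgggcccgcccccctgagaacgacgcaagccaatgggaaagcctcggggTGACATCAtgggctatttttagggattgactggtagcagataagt
Fos: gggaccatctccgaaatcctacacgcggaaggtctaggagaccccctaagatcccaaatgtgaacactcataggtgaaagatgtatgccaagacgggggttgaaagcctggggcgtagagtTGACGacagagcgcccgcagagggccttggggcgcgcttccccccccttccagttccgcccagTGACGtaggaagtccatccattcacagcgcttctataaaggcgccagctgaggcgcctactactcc
Atf3: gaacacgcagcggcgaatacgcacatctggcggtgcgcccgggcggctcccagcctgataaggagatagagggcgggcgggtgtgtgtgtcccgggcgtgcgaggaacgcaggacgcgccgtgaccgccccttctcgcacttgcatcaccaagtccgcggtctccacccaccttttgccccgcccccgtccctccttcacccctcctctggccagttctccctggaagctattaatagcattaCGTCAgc
The *Jun* match lies at -45 to -38 from the start, and *Jun* was the only one of the 8 windows with TGACATCA on either strand, which 2.93% of 32851 mouse promoter windows of this length hold. TGACG was present in 4 of the 8 windows (*Fos*, *Fosb*, *Junb* and *Atf3*) and in 17.8% of all windows. In *Fosb* the 73 bases of the window nearest the start lie inside the annotated gene body, and its match (-60 to -56) is among them. The AP-1 site TGACTCA (4.46% of all windows), the full element TGACGTCA (1.55%), the EGR1 site GCGTGGGCG (0.536%), the progesterone response element (AGAACA and TGTTCT with 3 bases of any kind between, 0.00913%) and the CArG box (1.47%), each searched on both strands, matched in 0 of the 8 windows. TGACG also lies within TGACGTCA, and it was added to the search after these letters had been read.

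Each deposited value is on a log2 scale and relative to the MPA arrays, whose linear mean is set to 1, so it gives changes and no level above background, and genes cannot be ranked against each other by level. For the same reason, presence of epithelial markers in the tumours could not be checked. The libraries differed in ways whose part in the values of these genes was not tested. The 3′ minus 5′ difference of the Actb controls grows as RNA breaks. Like every value here it is relative to MPA, whose arrays lie around 0 by that scaling. It thus gives a change from MPA and not how broken the RNA of any array was. This difference was -0.07 and 0.05 in the MPA arrays and -0.09 and 0.14 in no MPA. It was between 0.13 and 0.36 at 6 h and 12 h, and between 0.35 and 0.59 at 24 h and 48 h. The median of 17 macrophage markers was -0.81 and 0.52 in MPA, -0.34 and -0.45 in no MPA and 1.87 and 1.79 at 48 h. 14 exocrine pancreas genes had medians of 5.95 and 4.53 after 6 h, 0.995 and 6.63 after 24 h, and 4.69 and 5.44 after 48 h, with the other arrays between -0.79 and 0.87. 18 liver genes had 3.51 and 4.03 after 24 h, and 15 muscle genes had 4.24 and 0.11 after 48 h. In bulk tumour RNA, fewer cells of a type and less RNA per cell cannot be told apart. Replicates differed in the immediate early genes themselves, most in no MPA and MPA. The SD of replicate 1 minus replicate 2 over the 14 probe sets was 1.18 in no MPA, 0.81 in MPA and between 0.28 and 0.53 in the MFP groups. In no MPA the excess of replicate 1 over replicate 2 was 3.77 for *Fosb*, 2.58 for *Fos*, 1.99 for *Atf3* and 1.34 for *Egr1* on the log2 scale. These were the 6th, 21st, 43rd and 193rd largest of 45037 probe sets. In MPA, the reference of every comparison with it, replicate 1 minus replicate 2 was -2.39 for the main *Fosl1* probe set, -1.22 for *Fos* and 1.06 for *Egr1*. Among the MFP pairs, this difference was -1.86 for the main *Fosl1* probe set at 6 h and 1.28 for *Fosb* at 24 h.

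**Figure D1:**
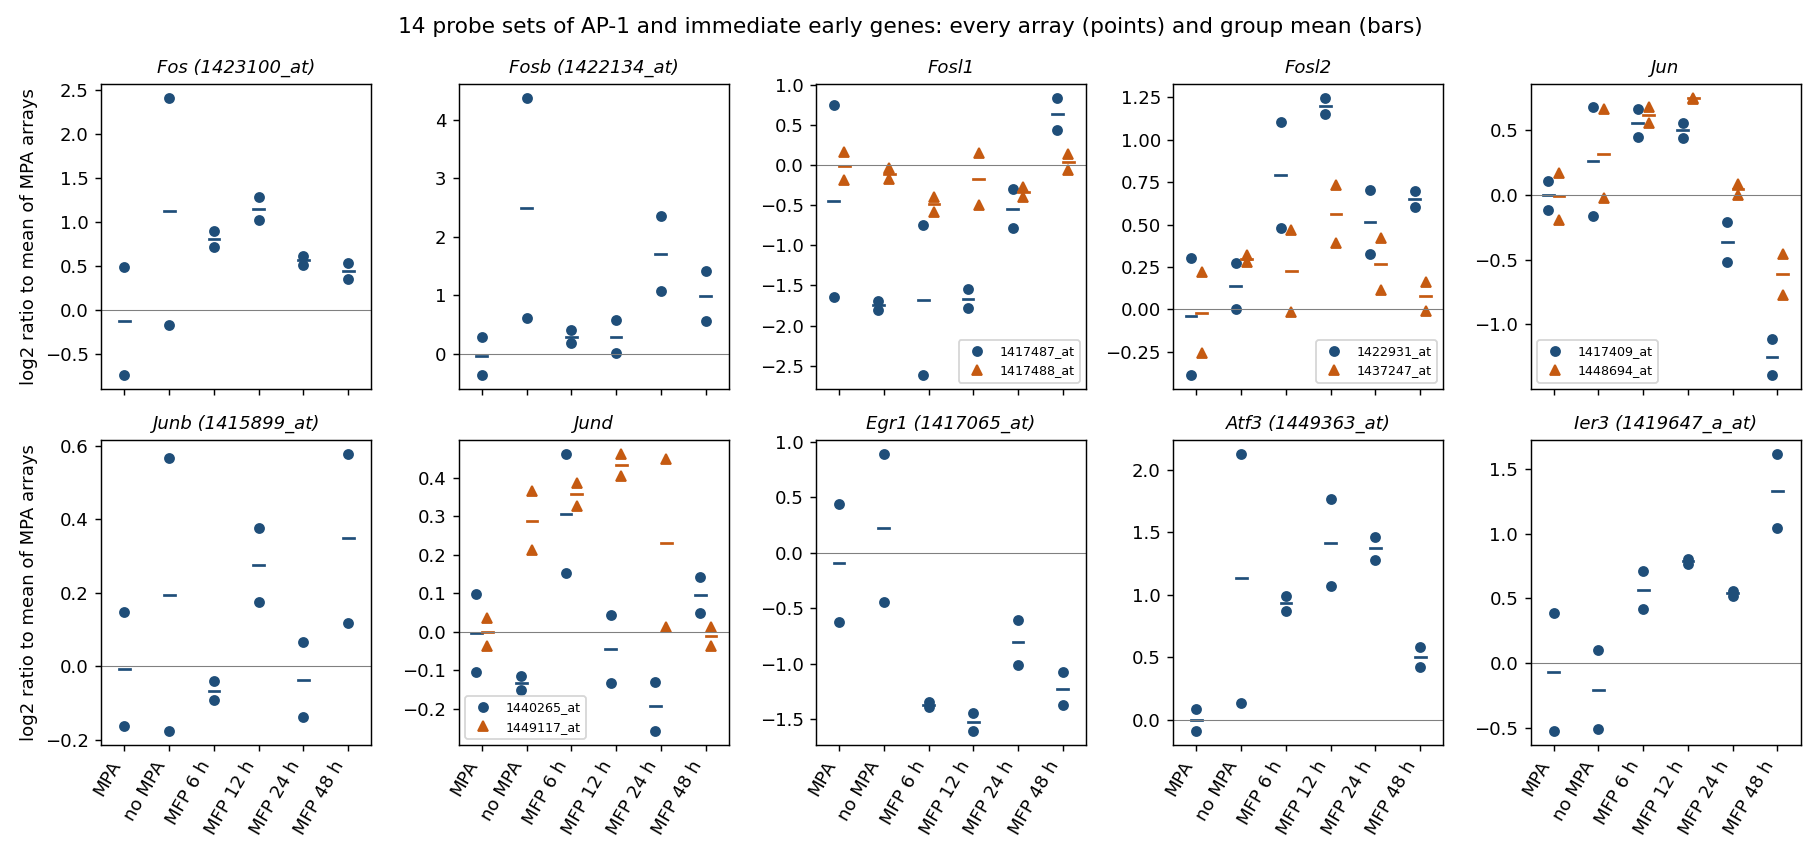
Log2 ratio (y axis, 0 is the MPA mean) for the 14 probe sets in each of the 6 groups (x axis). Points are the 12 arrays and bars are group means (n = 2). Jun drops from 0.56 at 6 h to -1.25 at 48 h in its main probe set, Egr1 is below 0 in all 8 MFP arrays, and no MPA replicate 1 carries the highest values of Fos, Fosb and Atf3.

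The first question was which members differed among the 6 groups at all, a test (limma's moderated F test, Benjamini-Hochberg adjusted over all 45037 probe sets other than controls) that does not single out the MPA arrays. 3 of the 14 probe sets passed at 0.05, against 12.7% of all probe sets. They were both probe sets of *Jun* (adjusted p = 0.0102 for the main one and 0.0278 for the second) and that of *Ier3* (adjusted p = 0.0492). *Egr1* (adjusted p = 0.0594) and the main probe set of *Fosl2* (adjusted p = 0.0733) lay just outside, and the other 9 did not pass. With 1 of the 12 arrays left out in turn, the main *Jun* call was lost without MFP 48 h replicate 1 alone (adjusted p = 0.0557), that of the second *Jun* probe set in 6 of 12 cases and that of *Ier3* in 10 of 12. Quantile normalization ended these 3 calls and every other call on members given below from all 12 arrays except the slopes over MFP time. Of all probe sets, this normalization left 0.633% called over the 6 groups, and 8.84% for the slopes in place of 9.28%. Under it the log2 fold change of *Fosl2* at 12 h was 1.24 as before, that of *Egr1* over the 4 MFP times -1.31 in place of -1.30, and at 48 h against MPA those of the main *Jun* probe set and *Ier3* were -0.95 and 0.93 in place of -1.25 and 1.40. A fit on the compared groups alone ended all member calls against MPA and that of the second *Jun* probe set against no MPA.

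*Jun* encodes c-Jun, the core subunit of AP-1. In its main probe set the log2 ratios were -0.12 and 0.11 in MPA, 0.68 and -0.16 in no MPA, 0.44 and 0.67 after 6 h of MFP, 0.44 and 0.56 after 12 h, -0.21 and -0.52 after 24 h, and -1.39 and -1.11 after 48 h. The 6 h and 12 h arrays overlapped and lay above both MPA arrays, the 24 h arrays lay below them, and the 48 h arrays were the lowest of the 12. The second probe set was also highest early and lowest late, at 0.56 and 0.68 after 6 h, 0.75 and 0.74 after 12 h, 0.09 and -0.00 after 24 h, and -0.77 and -0.45 after 48 h, with MPA at 0.17 and -0.20 and no MPA at 0.67 and -0.03. At 24 h its arrays lay within the range of MPA, unlike those of the main probe set, and its 48 h arrays were again the lowest of the 12.

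Against MPA at 48 h, the main *Jun* probe set fell by 1.25 ± 0.27 (log2 fold change ± SE in limma, n = 2 arrays a group, adjusted p = 0.0197), a 2.37-fold lower signal. The second stood at -0.60 ± 0.24 (adjusted p = 0.162). Against no MPA both fell, by 1.51 ± 0.27 (adjusted p = 0.00811) and 0.93 ± 0.24 (adjusted p = 0.0397). Over the 8 MFP arrays, without use of the MPA arrays, the slope of *Jun* was -0.63 ± 0.09 per unit of log2 hours for the main probe set (limma, adjusted p = 0.00326) and -0.44 ± 0.08 for the second (adjusted p = 0.0115). The single steps from 12 h to 24 h (-0.86 ± 0.27) and from 24 h to 48 h (-0.89 ± 0.27) did not pass (limma, adjusted p = 0.178 and 0.189), and the step from 6 h to 12 h was -0.06 ± 0.27, with overlapping arrays (all 3 for the main probe set). The early excess over MPA, 0.56 ± 0.27 at 6 h for the main probe set and 0.63 ± 0.24 for the second, did not pass either.

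The slope of the main *Jun* probe set stayed past the threshold whichever MFP array was left out, while that of the second had adjusted p = 0.0543 in limma without MFP 48 h replicate 1. The fall against MPA lost its call when any 1 of its 4 arrays was left out, with adjusted p = 0.0727 and 0.0777 in limma without MPA replicate 1 or 2, 0.0971 without MFP 48 h replicate 1, and a value just above 0.05 without MFP 48 h replicate 2. Against no MPA, leaving out no MPA replicate 1 gave -1.09 for the main probe set (limma, adjusted p = 0.0562) and -0.58 for the second (adjusted p = 0.249). Without MFP 48 h replicate 1 these had adjusted p = 0.0527 and 0.190 in limma, and without replicate 2 the second had 0.0685. Over the same times the median of 14 luminal epithelial markers went from 0.34 and 0.25 at 6 h to -0.61 and -0.15 at 48 h, that of 15 fibroblast and matrix genes from -0.88 and -0.30 to 1.54 and 1.72, and that of 11 neutrophil markers from -0.10 and 0.28 to 3.35 and 1.29. Against MPA at 48 h, 12 of 17 macrophage, 12 of 15 fibroblast and 5 of 11 neutrophil markers rose and 0 fell, while 1 of 14 luminal markers rose and 4 fell. Of 12 endothelial markers 4 rose and 1 fell, and of 12 T and NK cell markers 0 were called. Among all genes 6.30% rose and 5.97% fell. The part of these markers and of the Actb 3′ minus 5′ difference in the fall of *Jun* was not tested.

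**Figure D2:**
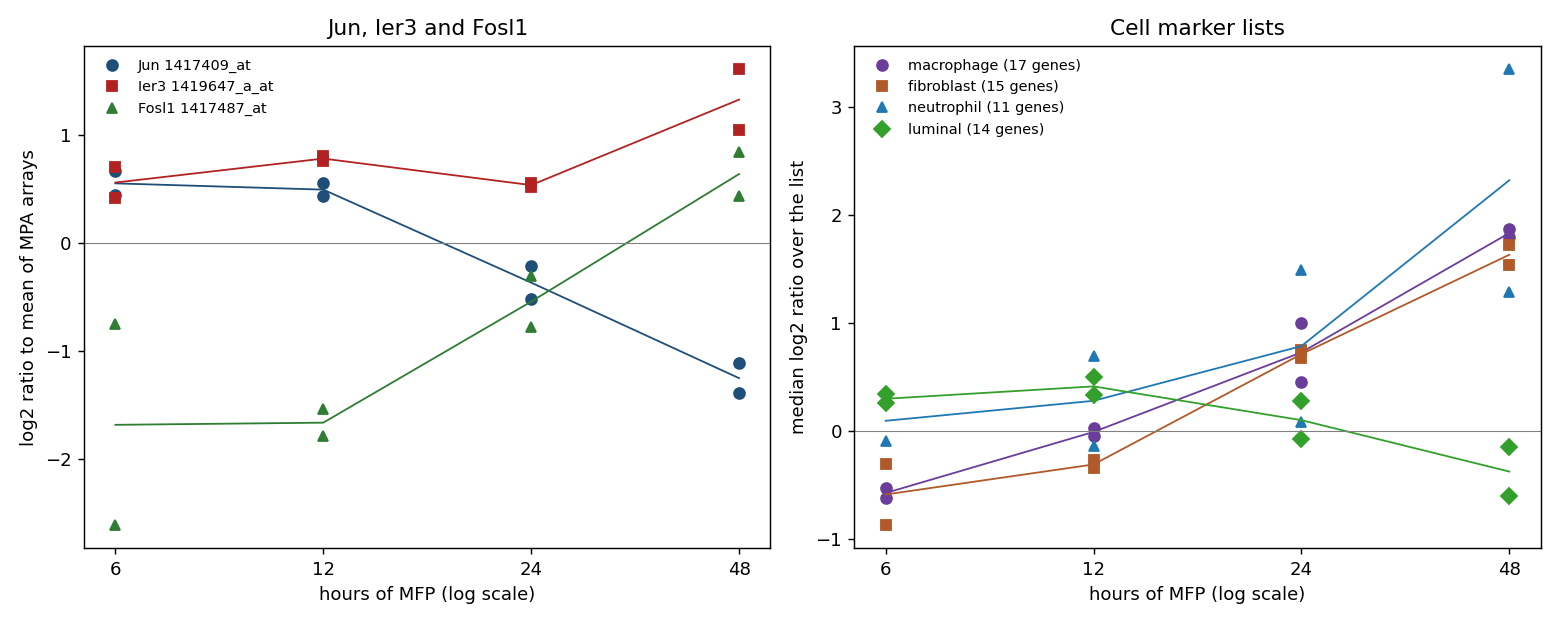
Left, log2 ratio (0 is the MPA mean) of the main probe sets of Jun and Fosl1 and of Ier3 against hours of MFP (log axis). Right, the median log2 ratio of 4 cell marker lists in the same arrays. Points are arrays and lines join means of 2 arrays. Jun falls from 0.56 at 6 h to -1.25 at 48 h while the macrophage median reaches 1.87 and 1.79.

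*Ier3* encodes a stress-induced regulator of cell survival that is also a target of NF-kappaB and p53. Its probe set gave -0.53 and 0.38 in MPA, 0.10 and -0.51 in no MPA, 0.42 and 0.71 after 6 h, 0.81 and 0.76 after 12 h, 0.52 and 0.56 after 24 h, and 1.05 and 1.62 after 48 h. All 8 MFP arrays were above all 4 arrays without MFP, and the 48 h arrays were the highest. At 48 h *Ier3* rose by 1.40 ± 0.32 against MPA (limma, adjusted p = 0.0242), a 2.64-fold increase, and by 1.54 ± 0.32 against no MPA (adjusted p = 0.0156). No step between successive times passed, and the slope over the 8 MFP arrays was 0.21 ± 0.09 (limma, adjusted p = 0.211). Without MPA replicate 1 the 48 h difference from MPA was 0.95 (limma, adjusted p = 0.155), and without MFP 48 h replicate 2 it was 1.12 (adjusted p = 0.127). The difference from no MPA had adjusted p = 0.112 in limma without no MPA replicate 2 and 0.0904 without MFP 48 h replicate 2.

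Among the Fos family, *Fosl2* (Fra-2) was called against MPA at 12 h. Its main probe set gave -0.39 and 0.30 in MPA, 0.00 and 0.28 in no MPA, 0.48 and 1.10 after 6 h, 1.15 and 1.25 after 12 h, 0.70 and 0.32 after 24 h, and 0.70 and 0.61 after 48 h. The 8 MFP arrays were all above the 4 others, the lowest of them (0.32) close to the highest array without MFP (0.30). At 12 h the rise was 1.24 ± 0.28 (limma, adjusted p = 0.0410), a 2.36-fold change. It did not pass without MPA replicate 1 (0.89, limma, adjusted p = 0.180) or without either 12 h array (adjusted p = 0.154 and 0.208). The second probe set stood at 0.58 ± 0.24 at 12 h (limma, adjusted p = 0.250), with 0.39 and 0.73 in the 12 h arrays and -0.26 and 0.22 in MPA.

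*Fosl1* encodes Fra-1, a Fos relative without a transactivation domain that is often high in invasive carcinoma cells. Its main probe set varied widely in MPA, at -1.64 and 0.75, so that no comparison with MPA was precise. It gave -1.81 and -1.69 in no MPA, -2.61 and -0.75 after 6 h, -1.79 and -1.54 after 12 h, -0.30 and -0.78 after 24 h, and 0.44 and 0.84 after 48 h. Within the MFP arrays the slope was 0.81 ± 0.18 per unit of log2 hours (limma, adjusted p = 0.0202), opposite in sign to that of *Jun*. It did not pass without MFP 6 h replicate 1 (0.67, limma, adjusted p = 0.0861) or without either 48 h array (adjusted p = 0.0721 and 0.0874). At 48 h it stood 2.39 ± 0.70 above no MPA (limma, adjusted p = 0.0595). The second probe set stayed between -0.59 and 0.16 in all 12 arrays and had a slope of 0.14 ± 0.08 (limma, adjusted p = 0.310), so the probe sets of this gene disagree. In all, 3 of 14 probe sets were called for a time slope, 1 rising (4.96% of all probe sets) and 2 falling (4.32%), against 9.28% in either direction.

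*Fos*, whose product is the classic partner of c-Jun, and *Fosb* did not pass in any comparison. *Fos* was -0.74 and 0.49 in MPA, 2.41 and -0.17 in no MPA, 0.71 and 0.90 after 6 h, 1.29 and 1.02 after 12 h, 0.52 and 0.62 after 24 h, and 0.36 and 0.53 after 48 h. All MFP arrays but 1 at 48 h thus lay above the higher MPA array, and no MPA replicate 1 lay above them all. *Fosb* was -0.36 and 0.29 in MPA, 4.39 and 0.61 in no MPA, 0.41 and 0.18 after 6 h, 0.01 and 0.58 after 12 h, 2.35 and 1.07 after 24 h, and 0.56 and 1.42 after 48 h. *Atf3*, a stress-induced ATF protein that pairs with Jun proteins, was -0.09 and 0.08 in MPA, 2.13 and 0.13 in no MPA, 0.99 and 0.87 after 6 h, 1.07 and 1.76 after 12 h, 1.47 and 1.28 after 24 h, and 0.42 and 0.59 after 48 h. Every MFP array of *Atf3* was above both MPA arrays, and the differences of 1.42 ± 0.49 at 12 h and 1.38 ± 0.49 at 24 h did not pass (limma, adjusted p = 0.167 and 0.139).

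The genes of JunB and JunD passed no test. *Junb*, which often opposes c-Jun, lay between -0.18 and 0.58 over the 12 arrays, and *Jund* between -0.26 and 0.46 in its 2 probe sets. The difference between the 4 MFP groups and the 2 groups without MFP was 0.04 for *Junb* (95% interval -0.32 to 0.39) and 0.11 for both *Jund* probe sets (-0.14 to 0.36 and -0.15 to 0.36).

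*Egr1*, a zinc finger transcription factor induced through ERK signalling and serum response factor, had a mean below that of MPA at every MFP time. It gave 0.44 and -0.63 in MPA, 0.89 and -0.45 in no MPA, -1.35 and -1.40 after 6 h, -1.61 and -1.45 after 12 h, -1.01 and -0.61 after 24 h, and -1.08 and -1.38 after 48 h. 7 of the 8 MFP arrays were below all 4 arrays without MFP, and 1 at 24 h (-0.61) lay beside MPA replicate 2 (-0.63). No single time passed against MPA, with log2 fold changes of -1.28 ± 0.42 after 6 h, -1.43 ± 0.42 after 12 h, -0.71 ± 0.42 after 24 h and -1.13 ± 0.42 after 48 h (limma, adjusted p from 0.104 after 12 h upward). Against no MPA the 48 h difference was -1.45 ± 0.42 (limma, adjusted p = 0.0583).

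The mean of the 4 MFP groups was also set against the mean of MPA and no MPA, a comparison added after these values had been seen and so no independent evidence. In 7 of the 14 probe sets, those of *Fos*, *Fosb*, *Egr1*, *Atf3*, *Ier3* and both of *Fosl2*, the mean lay on the same side of MPA at all 4 MFP times. How often this holds among all probe sets was not counted. The 4 differences share the MPA arrays, so this count is a description and no result about these genes. 3 of 14 probe sets passed, 2 higher (5.18% of all probe sets) and 1 lower (6.75%), beside 11.9% in either direction, and for 2 of 14, *Ier3* and *Fosl2*, the arrays did not overlap (5.35% of all). *Egr1* was lower by 1.30 ± 0.26 (-1.30, limma, adjusted p = 0.0105, n = 8 against 4 arrays), a 2.46-fold difference. It passed whichever array was left out, with values from -1.63 to -0.96. *Ier3* was higher by 0.94 ± 0.20 (limma, adjusted p = 0.0125) and the main *Fosl2* probe set by 0.74 ± 0.17 (adjusted p = 0.0194). *Ier3* had adjusted p = 0.0640 in limma without no MPA replicate 2, and *Fosl2* had 0.0811 without MPA replicate 1 and 0.0867 without no MPA replicate 1. The main *Jun* probe set differed by -0.27 ± 0.16 in this comparison, its early and late values lying on opposite sides of 0.

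**Figure D3:**
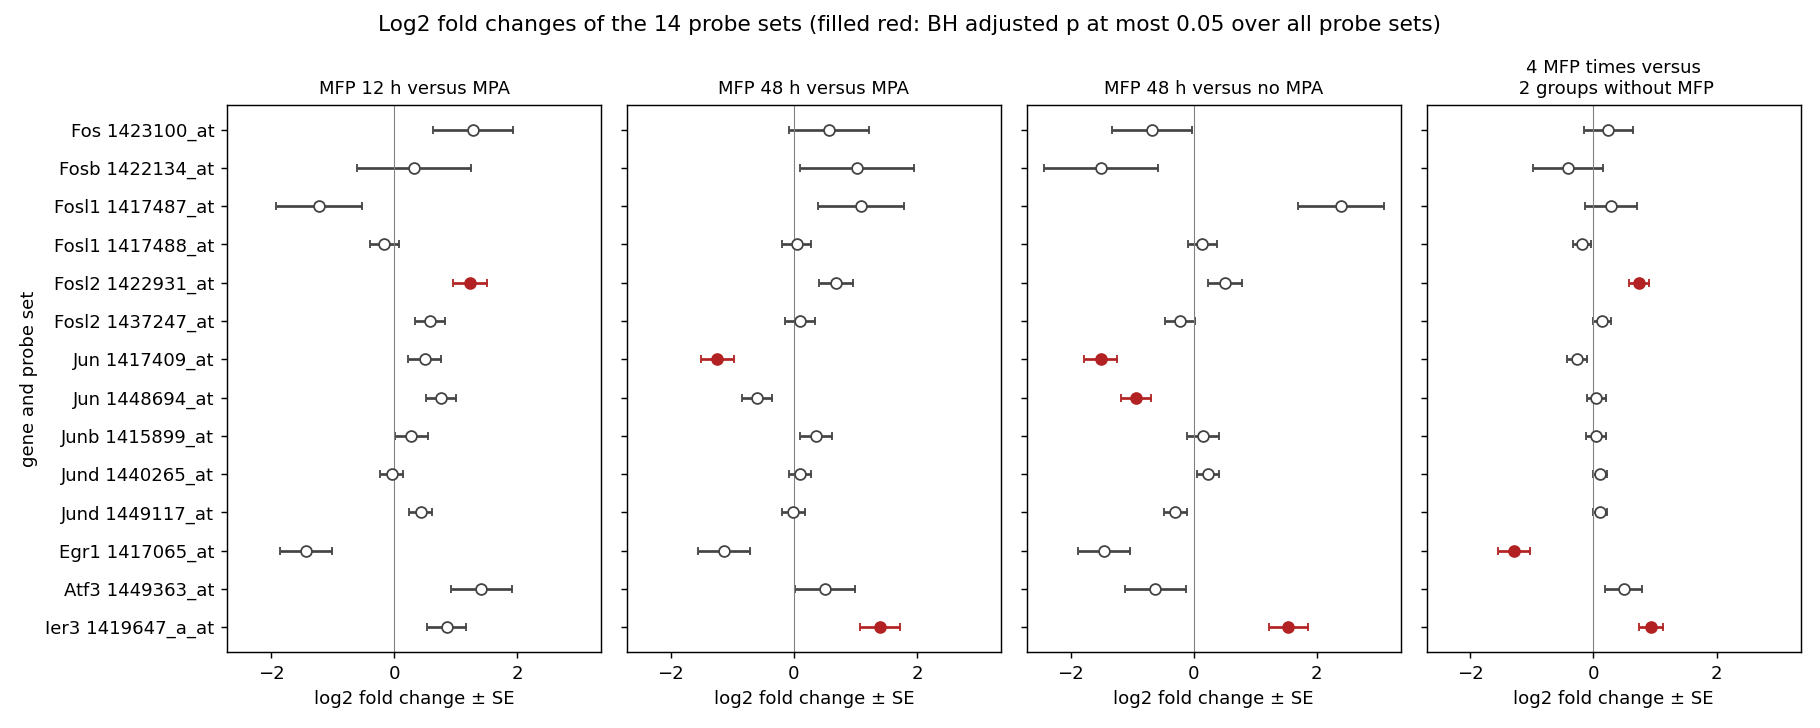
Log2 fold changes (x axis, ± SE from limma) of the 14 probe sets in 4 comparisons. Filled red points have a Benjamini-Hochberg adjusted p of at most 0.05 over all probe sets. Jun is lower at 48 h in both comparisons there, Ier3 is higher in 3 panels, and Egr1 is at or below -1.13 in each panel but passes only in the last.

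Counted by comparison, 0 of 14 probe sets were called after 6 h (0.926% of all), 1 after 12 h, higher (3.13%, of which 1.30% higher and 1.83% lower), 0 after 24 h (6.01%) and 2 after 48 h (9.25%) against MPA. At 48 h 1 was higher (4.37% of all) and 1 lower (4.88%). Against no MPA at 48 h there were 3 (9.35%), 1 higher (5.08%) and 2 lower (4.28%). In the steps between successive MFP times 0 of 14 passed (0% of all from 6 h to 12 h, 1.52% from 12 h to 24 h, 1.18% from 24 h to 48 h), and 0, 3 and 3 had an unadjusted p under 0.05 in limma, beside 3190, 6386 and 5354 of all 45037. At 48 h against MPA the arrays of the groups did not overlap for 7 of 14 probe sets, beside 51.2% of all. The median log2 fold change of the 14 was 0.34 after 6 h, 0.47 after 12 h, 0.14 after 24 h and 0.23 after 48 h, while the median of all probe sets lay between -0.05 and 0.02.

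The no MPA group set against MPA gave no call in limma among the 14 probe sets or among all 45037 (0%). At an unadjusted p under 0.05 there were 2 of the 14, *Fosb* (2.54 ± 0.93) and *Atf3* (1.13 ± 0.49), and 2963 in all. Without no MPA replicate 1, *Fosb* differed from MPA by 0.65 ± 0.55, *Atf3* by 0.14 ± 0.29, *Fos* by -0.04 ± 0.42 and *Egr1* by -0.35 ± 0.39. How MFP at 48 h compares with no MPA also depends on which no MPA array is used. With replicate 1 as the sole no MPA array 6 probe sets were lower at 48 h, namely those of *Fos* (-1.97), *Fosb* (-3.40), *Egr1* (-2.12), *Atf3* (-1.62) and both of *Jun*, beside 1569 of all 45037 called in either direction (3.48%). With no MPA replicate 2 as the sole one only *Ier3* of the 14 was called (1.84 ± 0.38, limma, adjusted p = 0.0412), beside 1180 of all (2.62%).

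**Figure D4:**
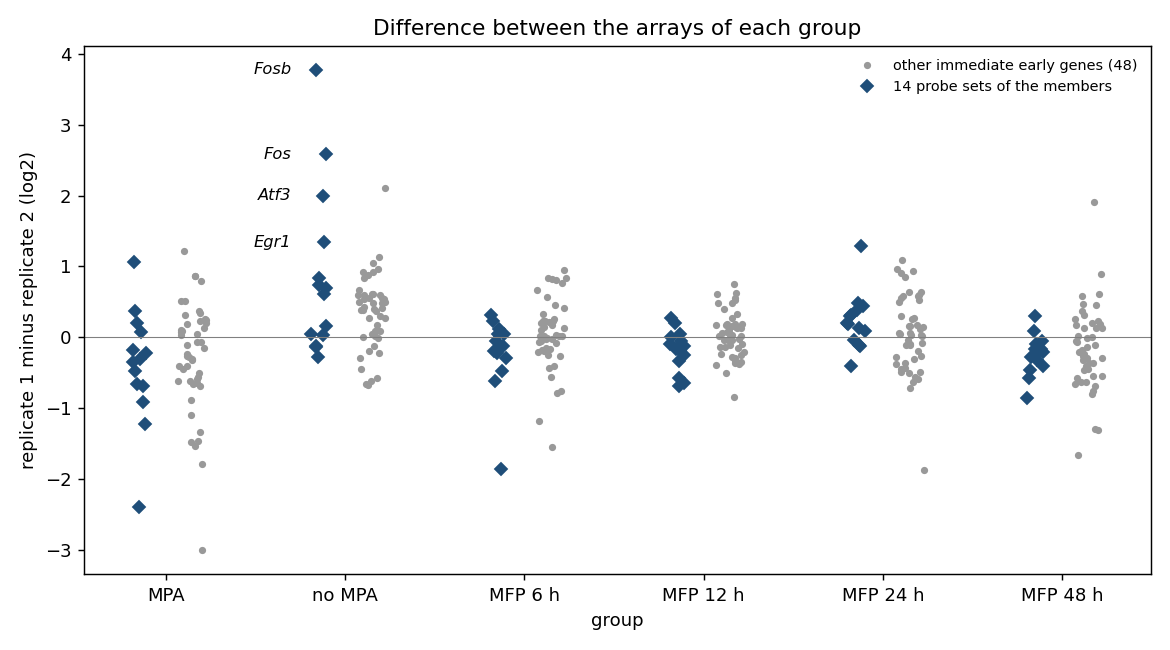
Log2 difference between replicate 1 and replicate 2 (y axis) in each group (x axis) for the 14 probe sets of the members (diamonds) and 48 other immediate early genes (grey points). In no MPA the members reach 3.77 for Fosb, and 4 of 14 exceed 1, beside 1.19% of all probe sets at 1 or more.

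The no MPA and MPA pairs differed in other immediate early genes as well. Among 48 further genes of this class (50 listed, 1 probe set per gene), no MPA replicate 1 was the higher by 0.41 in the median, while over all probe sets the median was -0.01. *Dusp1*, a MAP kinase phosphatase gene, stood at 1.79 and -0.32, *Trib1* at 0.77 and -0.36 and *Klf2* at 0.50 and -0.55. These 3 of the 48 had an excess of 1 or more (1.19% of all probe sets) and 0 a deficit of that size, with an SD of the differences of 0.52. In the MPA pair more of the 48 split, 7 lower and 1 higher by 1 or more in replicate 1, with an SD of 0.77 and a median of -0.19. All 45037 probe sets split more in that pair too, 1305 lower and 830 higher by 1 or more, with an SD of 0.51. In the no MPA pair these were 430 lower and 537 higher, with an SD of 0.40. The Actb 3′ minus 5′ difference of the no MPA pair was -0.09 and 0.14, and its macrophage medians were -0.34 and -0.45. What sets the arrays of either pair apart was not tested.

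All but 1 of the other immediate early genes called under MFP against MPA were higher. The count that fell was near or below the share of all genes. Against MPA, 0 of 48 rose and 1 fell after 6 h (0.330% and 0.973% of all genes), 3 rose and 1 fell after 12 h (1.65% and 2.63%), 6 rose and 1 fell after 24 h (4.41% and 4.12%), and 7 rose and 1 fell after 48 h (6.30% and 5.97%). The gene that fell at all 4 times was *Myc*, a growth regulator (-1.70 ± 0.28 at 6 h and -1.46 ± 0.28 at 48 h, limma, adjusted p = 0.0263 and 0.0127). *Klf6*, a zinc finger factor, rose at 12 h (1.27 ± 0.20), 24 h (1.24 ± 0.20) and 48 h (1.11 ± 0.20), and *Gadd45b*, a stress sensor, rose at 12 h (1.95 ± 0.37) and 24 h (1.62 ± 0.37). At 48 h the largest rises of this list were *Ccl2*, a chemokine that draws monocytes (3.36 ± 0.47), *Ptgs2*, which encodes cyclooxygenase-2 (3.15 ± 0.77), *Socs3* (2.03 ± 0.45) and *Tiparp* (1.67 ± 0.40). *Egr2*, a relative of *Egr1*, rose by 1.14 ± 0.26 at 48 h, where *Egr1* stood at -1.13 ± 0.42. The list median was 0.40 at 48 h and 0.00 over all genes. After quantile normalization 18 of all probe sets were called at 48 h against MPA, in place of 4166, and the calls of this and the following lists were not recomputed there.

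Of 24 measured genes for other basic leucine zipper factors, which can pair with AP-1 proteins or bind related sites, 0 were called after 6 h and 12 h, 1 rose after 24 h (4.41% of all genes) and 3 rose after 48 h (6.30%) against MPA, so that the 24 h count is near that of all genes. *Jdp2*, a repressor that pairs with c-Jun, rose by 1.25 ± 0.30 at 24 h and 2.12 ± 0.30 at 48 h (limma, adjusted p = 0.0362 and 0.00461). *Bach1* (1.52 ± 0.29) and *Nfe2l2*, the oxidative stress factor NRF2 (1.22 ± 0.22), rose at 48 h. The list median at 48 h was -0.02, against 0.00 for all genes.

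Of 23 measured genes described as AP-1 targets 7 rose and 0 fell at 48 h against MPA (6.30% and 5.97% of all genes), and the median was 1.29. They included *S100a8* (4.34 ± 1.10), *Timp1* (2.68 ± 0.57), *Mmp9* (2.11 ± 0.47) and the integrin gene *Itga5* (2.11 ± 0.36). *Mmp9*, *S100a8* and *S100a9* are also neutrophil markers in the lists used here, and the neutrophil median was 3.35 and 1.29 in these arrays. Against no MPA 12 rose (7.34% of all genes) and 1 fell (5.01%). *Ccnd1*, the cyclin D1 gene, was the only listed target called against MPA at 6 h (-1.85 ± 0.22), 12 h (-1.47 ± 0.22) and 24 h (-1.15 ± 0.22), and it was lower at all 3 times. At 48 h *Ccnd1* was not called against MPA. Its slope over the MFP arrays was 0.43 ± 0.06 per unit of log2 hours (limma, adjusted p = 0.00286). How far the rises come from the cell types marked was not tested.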

How the data were processed

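Each of 12 samples was hybridised to an Affymetrix Mouse Genome 430 2.0 array from 200 ng of RNA, per the labels. GCRMA is named in the submitters' processing notes, and no source used here gives its version. The deposited table is in log2 units. Raised to linear scale, both MPA arrays together average 1 (tolerance 1e-04) at 45099 of 45101 probe sets, so every value is a ratio to MPA. Scanner values were not used here, and signal over background is unknown.

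Groups came from the source names, and replicates were numbered in accession order. limma 3.58.1 (R 4.3.3) was fitted to the 45037 probe sets other than the 64 controls, with 1 mean for each of 6 groups (residual degrees of freedom 6, eBayes prior 4.38), and p-values were adjusted by Benjamini-Hochberg over all of them at 0.05. The time slope used log2 hours in the 8 MFP arrays. Gene lists used 1 probe set per gene, that with the largest SD over the arrays, for 18193 genes. From each list of related genes up to 4 called per direction and comparison, those with the largest changes, were named, and for each member called over the 6 groups the 2 genes with the highest Pearson r. The genes named for the no MPA pair, and the repeat of a named gene at further times, were chosen after their values were seen. The members and lists were chosen with earlier results of these data known. The scripts were tested on simulated data. Alternatives were 1 probe set per gene, array medians subtracted, quantile normalization, robust eBayes, array weights, the groups compared alone, and each array left out.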

Additional observations from a re-analysis of the deposited data

Results flagged for a closer look

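At 48 h MFP and no MPA differed for 2 genes when set directly against one another. These were 3 of 14 probe sets, beside 9.35% of all probe sets. The no MPA group itself gave 0 calls against MPA in limma among all 45037 probe sets. It is named here by its source name, while the protocol text places saline with continued MPA. *Jun* was lower under MFP than without MPA, at -1.51 for its main probe set and -0.93 for the second, and *Ier3* was higher, at 1.54 (log2, limma, n = 2 arrays a group). Neither *Jun* difference passed without no MPA replicate 1 or without MFP 48 h replicate 1. That of the second *Jun* probe set was also lost without MFP 48 h replicate 2. The *Ier3* difference did not pass without no MPA replicate 2 or without MFP 48 h replicate 2. Quantile normalization ended all of these calls. The differences of MFP and of no MPA from MPA share the MPA arrays, which cancel in this comparison.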

How the results depend on the processing

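Of 198 repeats of the 15 called member results under the alternatives, 142 kept the call, 56 lost it and 0 changed direction. Quantile normalization gives the MPA arrays (SD over probe sets 0.25 and 0.27) the spread of the others (0.39 to 0.74). Under it 0 member probe sets were called at 12 h (0.508% of all) and 48 h (0.04%) against MPA. The count was also 0 at 48 h against no MPA (0.389% of all), over the 6 groups (0.633%) and for the 4 MFP times together (2.50%). All 3 time slopes were kept, and of all probe sets 8.84% passed for the slope, in place of 9.28%. Fitted on the compared groups alone, 0 were called at 12 h and at 48 h against MPA (0% and 0.193% of all probe sets). Leaving out 1 array could end member calls at 12 h and 48 h against MPA and at 48 h against no MPA. The same held over the 6 groups, for the time slope and for the 4 MFP times together. At 48 h against no MPA and over the 6 groups, leaving out 1 array also added member calls in some cases. Over all 45037 probe sets the number called moved as well. Where an arm had 1 array left, that array was assumed to vary like the other groups. The cause of the lost calls was not tested. Over all probe sets, 4166 were called at 48 h against MPA, 18 after quantile normalization, 87 on the 4 arrays alone and 921 without MPA replicate 1. No paired analysis was possible because the labels give the arrays no replicate numbers. 2 arrays a group limit the precision of every value.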

Other observations

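The genes whose values over the 12 arrays were most like those of the main *Jun* probe set among 18183 others were *Rab15* (Pearson r = 0.96) and *Entpd5* (r = 0.96), and those most like *Ier3* were *Tmub2* (r = 0.96) and *Cdkn1a* (r = 0.96), the gene of the cell cycle inhibitor p21. The arrays share groups and the genes were picked as the highest, so these values are a description.

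Of 21 measured genes for kinases and transcription factors upstream of AP-1, 0 were called against MPA at any MFP time (limma). Of all genes, between 0.330% (6 h) and 6.30% (48 h) were higher there and between 0.973% and 5.97% lower. In the other comparisons 3 were called. *Map2k2* was higher at 48 h than in no MPA (0.84 ± 0.20, limma, adjusted p = 0.0271), where 7.34% of all genes were higher. *Braf* was lower at 24 h than at 12 h (-1.66 ± 0.34, limma, adjusted p = 0.0411), where 1.52% of all probe sets were called in either direction. *Map2k4* was higher over the 4 MFP times in the added comparison (0.55 ± 0.15, limma, adjusted p = 0.0375), where 5.18% of all probe sets were higher.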
